A study of Homo sapiens with 6 samples.

Results

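Transcripts of the ERBB receptor family were followed across the 6 libraries, together with those of the family's ligands, the sheddase ADAM17 and the feedback inhibitor ERRFI1. The 10 genes were chosen by their symbols, and all 10 were found among the 20332 genes of the expression table. The RNA came from LX-2 cells, an immortalised human hepatic stellate cell line, stellate cells being the liver cells that become matrix-producing myofibroblasts in fibrosis. In 3 libraries the cells received TGF-β1 with compound 11 at 10 µM, and in 3 they received TGF-β1 with the solvent DMSO, for 48 h. TGF-β1 was therefore common to both groups, and cells without it were not analysed here. In the labels the compound has only a number, and the series title places it among plant diterpenoids studied as inhibitors of the PI3K-AKT pathway. They do not say whether replicates were separate cultures, so p-values measure the spread between these libraries, which may be technical.

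The ERBB receptors are receptor tyrosine kinases that work as dimers. EGFR binds ligands such as amphiregulin, epiregulin, HB-EGF and TGF-α, ERBB3 and ERBB4 bind neuregulins, and ERBB2 has no known ligand and serves as a partner for the others. The ligands are made as membrane-bound precursors that metalloproteinases, ADAM17 above all, cut from the cell surface. Active receptors signal through RAS-ERK and PI3K-AKT, and ERRFI1, whose transcription this signalling induces, binds the EGFR kinase domain and shuts it off. In the liver, EGFR ligands are known as mitogens for hepatocytes and stellate cells.

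With compound 11 the family differed in both directions. The transcripts of EGFR, ADAM17, ERRFI1 and the scarce ligand amphiregulin (AREG) were higher, and those of ERBB2, of the main ligand HBEGF and of the neuregulin NRG1 were lower. EREG and TGFA lay near or under 1 TPM (a transcript level scaled by transcript length and by the total of the library). ERBB3 reached 1 TPM in 2 libraries, both DMSO, at 1.69 and 3.0 TPM. ERBB3, EREG and TGFA were not tested, because a test required at least 1 TPM in at least 3 libraries. In limma with Benjamini-Hochberg adjustment over the 12067 genes tested, all 7 members that entered the test were called at a threshold of 0.05: 4 were higher and 3 lower. Of all genes tested, 49.6% passed, 25.3% higher and 24.3% lower. The groups did not overlap for the same 7 members, as for 57.8% of all genes tested. With this share of the transcriptome called, a call alone does not set a member apart, and the sizes of the changes are therefore given for each member. In bulk RNA, fewer cells of a type and less RNA per cell cannot be told apart.

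Promoter sequences are shown for 3 members: AREG and ERRFI1, with the largest increases in log2 fold change among the 7 tested members, and HBEGF, the most abundant ligand, which fell. Each window runs from 250 bases before to 50 bases after the RefSeq transcription start site (GRCh38.p14), 5′ to 3′ on the gene's strand. The capitals mark matches, on either strand, to the GC box GGGCGG and to TGACGT, the core of the cAMP response element. The AREG window is chr4:74444886-74445185 on the plus strand, the HBEGF window chr5:140346554-140346853 on the minus strand and the ERRFI1 window chr1:8026260-8026559 on the minus strand.
AREG: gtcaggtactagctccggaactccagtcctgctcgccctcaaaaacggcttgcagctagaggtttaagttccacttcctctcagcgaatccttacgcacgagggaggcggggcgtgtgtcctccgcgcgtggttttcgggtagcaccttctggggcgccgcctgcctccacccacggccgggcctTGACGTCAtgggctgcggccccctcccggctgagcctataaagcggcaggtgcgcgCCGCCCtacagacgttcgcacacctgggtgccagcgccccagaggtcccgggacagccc
ERRFI1: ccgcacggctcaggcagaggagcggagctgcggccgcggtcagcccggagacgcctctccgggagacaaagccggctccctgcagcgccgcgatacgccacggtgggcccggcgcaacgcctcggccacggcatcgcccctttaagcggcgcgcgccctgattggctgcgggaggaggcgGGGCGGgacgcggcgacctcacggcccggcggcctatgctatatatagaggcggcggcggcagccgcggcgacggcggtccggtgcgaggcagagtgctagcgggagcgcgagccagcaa
HBEGF: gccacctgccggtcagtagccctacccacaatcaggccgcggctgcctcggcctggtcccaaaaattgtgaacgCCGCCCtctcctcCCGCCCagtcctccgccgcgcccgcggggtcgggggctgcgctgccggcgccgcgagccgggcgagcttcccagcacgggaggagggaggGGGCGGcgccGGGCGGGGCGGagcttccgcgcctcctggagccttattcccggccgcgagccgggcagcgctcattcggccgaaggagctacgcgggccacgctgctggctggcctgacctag

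The AREG window holds 1 palindromic stretch in which TGACGT occurs on both strands, starting 65 bases before the start site, overlapping itself. AREG was the only 1 of the 8 members with a window used here to hold this core. Of all 35116 human promoter windows of the same length, 7.98% contain it. No window was available for ERBB3, and windows on chromosome 8, where NRG1 lies, were left out of the members' search. HBEGF has 5 matches to the GC box, of which a pair overlap, and ERRFI1 and AREG have 1 each. Over the first-listed windows of the 8 members, 6 held a GC box, which 45.0% of all windows contain. The AP-1 motif TGANTCA and the TEAD motif GGAATG were also searched on both strands and were not found in these 3 windows. They occur in 7.71% and 14.0% of all windows. Matches are letters only and were not tested for binding.

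Levels spanned a wide range. EGFR, HBEGF and ERBB2 were the abundant members: 88.7%, 86.9% and 77.4% of the genes detected in any library had a lower mean TPM than each of them. In compound 11 libraries the order by mean TPM was EGFR, HBEGF, ERBB2, ADAM17, ERRFI1, NRG1, AREG, ERBB3, EREG and TGFA. ADAM17 and ERRFI1 overlapped there, as did ERBB3 with EREG and EREG with TGFA. In DMSO libraries HBEGF stood first and EGFR second, without overlap, and NRG1 stood above ADAM17 and ERRFI1. The order at the low end was ERBB3, AREG, EREG and TGFA, in which each neighbouring pair overlapped except AREG and EREG.

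**Figure D1:**
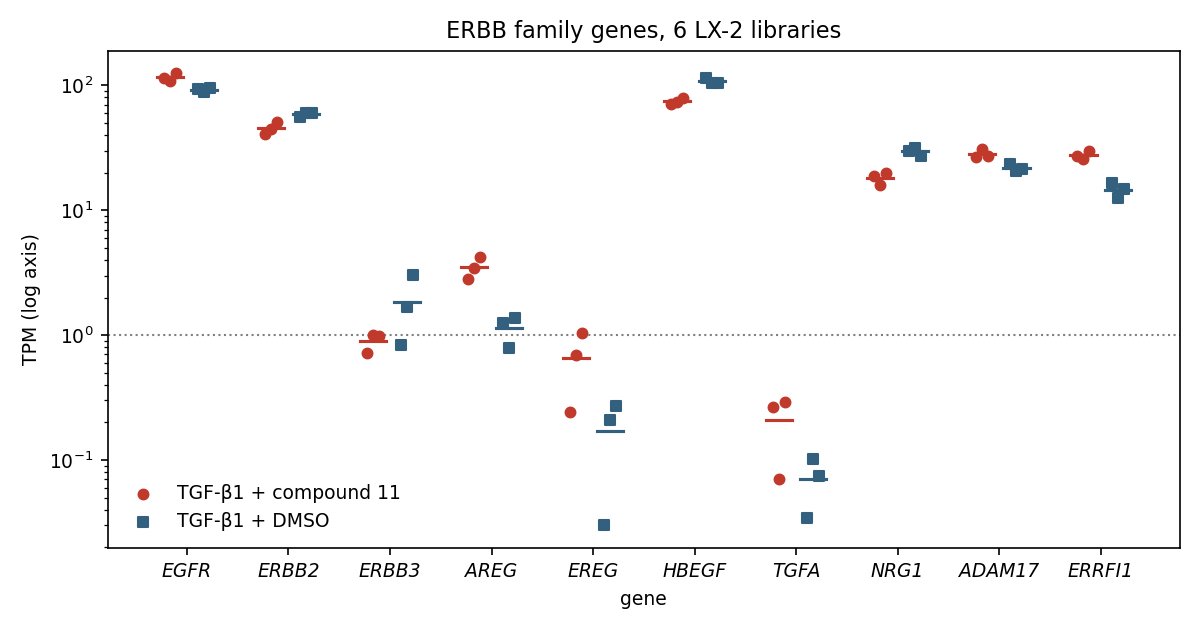
TPM on a log axis of the 10 genes in each library, with compound 11 libraries as red circles left of DMSO libraries as blue squares, the group mean as a bar and 1 TPM as a dotted line. The groups are apart for 7 genes and overlap for ERBB3, EREG and TGFA, which reach 1 TPM in 2, 1 and 0 libraries.

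Among the receptors, EGFR, the receptor for amphiregulin and HB-EGF, was at 115, 108 and 125 TPM in compound 11 libraries and at 94.1, 88.5 and 95.2 TPM in DMSO libraries. Every compound 11 library was above every DMSO library. The means were 116 ± 8.24 TPM and 92.6 ± 3.59 TPM (SD, n = 3 each), a limma log2 fold change of 0.32 with SE 0.06 (Benjamini-Hochberg adjusted p = 0.00143). On the log2(TPM + 1) scale used for all fold changes, 63.4% of tested genes had a smaller absolute change. EGFR lies on chromosome 7 at 55019021 to 55211628, plus strand (GRCh38, GENCODE 29). The antisense gene EGFR-AS1 overlaps its exons, and since the use of strand in counting is not given, reads of the 2 cannot be told apart.

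ERBB2, the partner receptor without a ligand of its own, went the other way. It was at 41.2, 45.0 and 51.2 TPM in compound 11 libraries and at 56.1, 60.2 and 59.8 TPM in DMSO libraries. The groups did not overlap, and compound 11 replicate 3 came nearest to the DMSO libraries. The limma log2 fold change was -0.36 with SE 0.08 (Benjamini-Hochberg adjusted p = 0.00428). ERBB2 lies on chromosome 17 at 39687914 to 39730426, plus strand. Its exons overlap those of MIEN1 and PGAP3 on the other strand; MIEN1 was at 49.1 ± 5.92 TPM with compound 11 and 44.7 ± 2.63 TPM in DMSO, and PGAP3 at 5.36 ± 0.319 and 5.17 ± 0.614 TPM (SD, n = 3 each). Neither passed in limma (Benjamini-Hochberg adjusted p = 0.258 and 0.768).

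EGFR made up a larger part of the receptor transcripts with compound 11. It accounted for 71.3% ± 1.76 of the summed TPM of the 4 ERBB receptors with the compound and for 60.4% ± 1.72 in DMSO (SD, n = 3 each), and ERBB2 for 28.1% ± 1.6 and 38.3% ± 1.51. The sum itself was 163 ± 12.2 TPM with compound 11 and 153 ± 4.45 TPM in DMSO, and its libraries overlapped. The ratio of EGFR to ERBB2, which does not depend on how a library is scaled, was 2.80, 2.41 and 2.44 in compound 11 libraries and 1.68, 1.47 and 1.59 in DMSO libraries. All 3 compound 11 ratios were higher. The ratio differed 1.61-fold (mean log2 difference 0.69, exact two-sided permutation p = 0.1, the smallest that 3 against 3 libraries allow).

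ERBB3, a neuregulin receptor with an impaired kinase, was at 0.713, 0.993 and 0.987 TPM in compound 11 libraries and at 0.832, 1.69 and 3.0 TPM in DMSO libraries. The groups overlapped, and the spread was wide in DMSO, with a coefficient of variation of 59.4%. The exons of ERBB3 overlap those of the protein-coding gene AC034102.2 on the same strand, so strand cannot separate their reads. AC034102.2 had a mean of 0 TPM in both groups. ERBB3 is known as an epithelial receptor, and of the epithelial markers EPCAM was at 0.093, 0.661 and 0.596 TPM with compound 11 and at 0, 0.565 and 0.902 TPM in DMSO. KRT19, a keratin of bile duct cells, was at 0.192, 2.0 and 0.909 TPM with compound 11 and at 0.301, 0.796 and 1.78 TPM in DMSO. ERBB3, EPCAM and KRT19 each had their lowest value of either group in replicate 1, and their part in the spread of ERBB3 was not tested. ERBB4, the remaining receptor, did not exceed 0.446 TPM in any library.

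Among the ligands, HBEGF, the heparin-binding growth factor that is also the receptor for diphtheria toxin, was by far the most abundant of those that bind EGFR. It was at 70.9, 73.8 and 78.9 TPM in compound 11 libraries and at 114, 105 and 105 TPM in DMSO libraries. The groups were well apart and tight, with coefficients of variation of 5.41% with the compound and 4.74% in DMSO. HBEGF was 1.45-fold lower with compound 11 (limma log2 fold change -0.53 with SE 0.06, Benjamini-Hochberg adjusted p = 4.57e-05), and 81.0% of tested genes had a smaller absolute log2 fold change. It lies on chromosome 5 at 140332843 to 140346631, minus strand.

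AREG, amphiregulin, a lower-affinity EGFR ligand of tissue repair, rose from a low base. It was at 2.83, 3.43 and 4.24 TPM in compound 11 libraries and at 1.24, 0.784 and 1.38 TPM in DMSO libraries. Each compound 11 library had at least 2 times the TPM of the highest DMSO library. Mean TPM was 3.08-fold higher (limma log2 fold change 1.07 with SE 0.17, Benjamini-Hochberg adjusted p = 0.000724), the largest absolute log2 fold change of the 7, with 95.1% of tested genes smaller in absolute value. AREG reached 1 TPM in 5 of 6 libraries, and its 3 compound 11 libraries would have sufficed for it to be tested. AREG gained 2.36 TPM while HBEGF fell by 33.4 TPM. AREG lies on chromosome 4 at 74445134 to 74455009, plus strand.

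EREG, epiregulin, lies 56382 bases upstream of AREG on the same strand, at 74365143 to 74388751. It was at 0.242, 0.696 and 1.03 TPM in compound 11 libraries and at 0.030, 0.210 and 0.269 TPM in DMSO libraries. Compound 11 replicate 1 fell within the DMSO range. TGFA, TGF-α, was at 0.266, 0.071 and 0.290 TPM with compound 11 and at 0.034, 0.101 and 0.075 TPM in DMSO, again with overlap. With no filter on low values, neither EREG (log2 fold change 0.48, limma, Benjamini-Hochberg adjusted p = 0.0813) nor TGFA (0.17, adjusted p = 0.158) nor ERBB3 (-0.51, adjusted p = 0.188) passed over 16532 genes. At these levels the depth, which the files do not give, limits what can be seen.

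HBEGF stayed the dominant EGFR ligand transcript. It made up 94.0% ± 1.03 of the summed TPM of the 7 EGFR ligands with compound 11 and 97.1% ± 0.283 in DMSO (SD, n = 3 each), while AREG made up 4.39% ± 0.602 and 1.02% ± 0.276. The sum of the 7 was 79.3 ± 5.14 TPM with compound 11 and 111 ± 4.97 TPM in DMSO. Without HBEGF the sum was 4.78 ± 1.12 and 3.25 ± 0.201 TPM, so HBEGF set the direction of the total. The lowest sum of these other ligands in compound 11 libraries was 3.68 TPM, and the highest in DMSO libraries was 3.47 TPM. The ratio of HBEGF to EGFR was 0.616, 0.680 and 0.632 in compound 11 libraries and 1.21, 1.18 and 1.10 in DMSO libraries. The ligand transcript was thus below that of its receptor in each compound 11 library and above it in each DMSO library.

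NRG1, the neuregulin that binds ERBB3 and ERBB4, was at 18.7, 16.0 and 19.8 TPM in compound 11 libraries and at 30.0, 31.7 and 27.0 TPM in DMSO libraries. The groups did not overlap. It was 1.63-fold lower (limma log2 fold change -0.67 with SE 0.09, Benjamini-Hochberg adjusted p = 0.000311), the largest decrease in log2 fold change among the 7 tested members. The gene spans chromosome 8 at 31639386 to 32767959, and its many isoforms are summed in 1 value here. NRG1 made up 84.8% ± 1.63 of the summed neuregulin TPM with compound 11 and 96.1% ± 1.20 in DMSO, as NRG2, a close relative, was at 2.62 ± 0.574 and 1.03 ± 0.314 TPM (SD, n = 3 each).

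**Figure D2:**
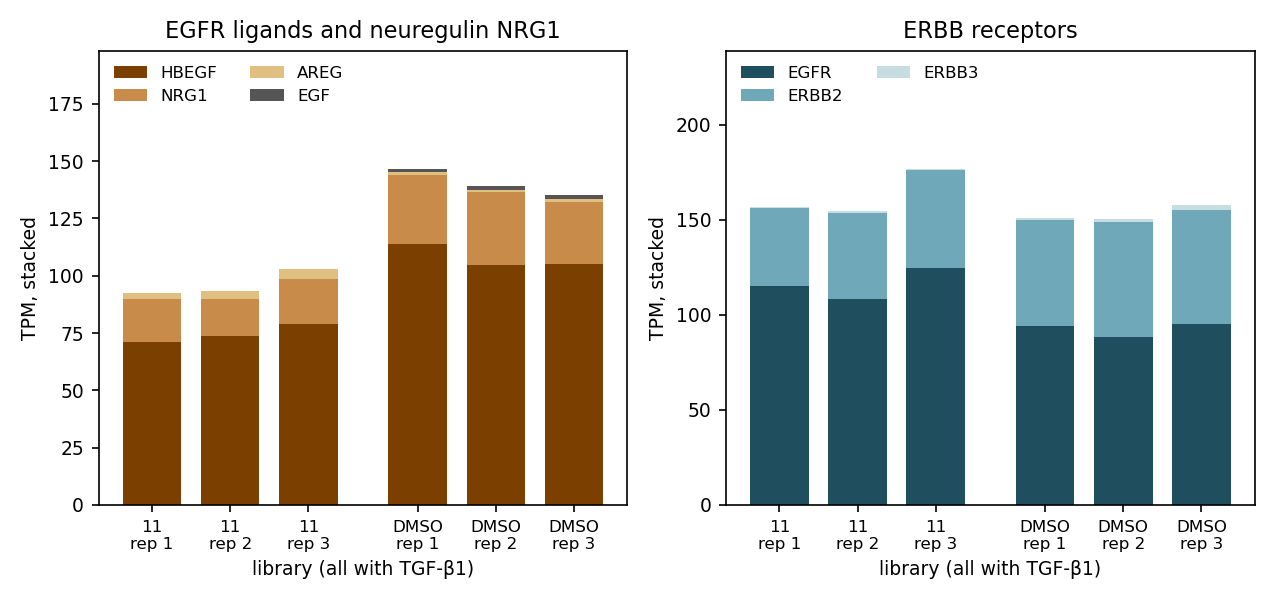
Stacked TPM in each library, with the 3 compound 11 libraries left of the 3 DMSO libraries; the left panel shows HBEGF, NRG1, AREG and EGF, and the right panel EGFR, ERBB2 and ERBB3. The ligand bars are shorter in all compound 11 libraries, and the EGFR part of the receptor bars is larger, at 71.3% against 60.4% of receptor TPM.

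ADAM17, the protease that releases amphiregulin, epiregulin, TGF-α and HB-EGF from the cell surface, was at 26.9, 30.7 and 27.4 TPM in compound 11 libraries and at 23.4, 20.7 and 21.2 TPM in DMSO libraries. The groups did not overlap. Mean TPM was 1.30-fold higher (limma log2 fold change 0.37 with SE 0.08, Benjamini-Hochberg adjusted p = 0.00407). ADAM17 lies on chromosome 2 at 9488486 to 9556732, minus strand, and shares exon positions with IAH1 on the other strand. IAH1 was at 46.5 ± 1.91 TPM with compound 11 and 49.9 ± 1.57 TPM in DMSO (limma, Benjamini-Hochberg adjusted p = 0.168). The ratio of ADAM17 to HBEGF was 0.347 to 0.416 in compound 11 libraries and 0.197 to 0.205 in DMSO libraries.

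ERRFI1, also called MIG6, the inhibitor that EGFR signalling induces, was at 27.1, 25.5 and 29.8 TPM in compound 11 libraries and at 16.4, 12.6 and 14.8 TPM in DMSO libraries. The lowest compound 11 library was well above the highest DMSO library. Mean TPM was 1.88-fold higher (limma log2 fold change 0.87 with SE 0.10, Benjamini-Hochberg adjusted p = 0.000108), and 92.0% of tested genes had a smaller absolute change. ERRFI1 lies on chromosome 1 at 8004404 to 8026308, minus strand, with an antisense gene over its exons. The ratio of ERRFI1 to EGFR was 0.236, 0.235 and 0.239 in compound 11 libraries and 0.175, 0.142 and 0.155 in DMSO libraries. It differed 1.51-fold (mean log2 difference 0.59, exact two-sided permutation p = 0.1, the smallest possible), so the inhibitor transcript was higher relative to that of its receptor in 3 of 3 libraries.

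**Figure D3:**
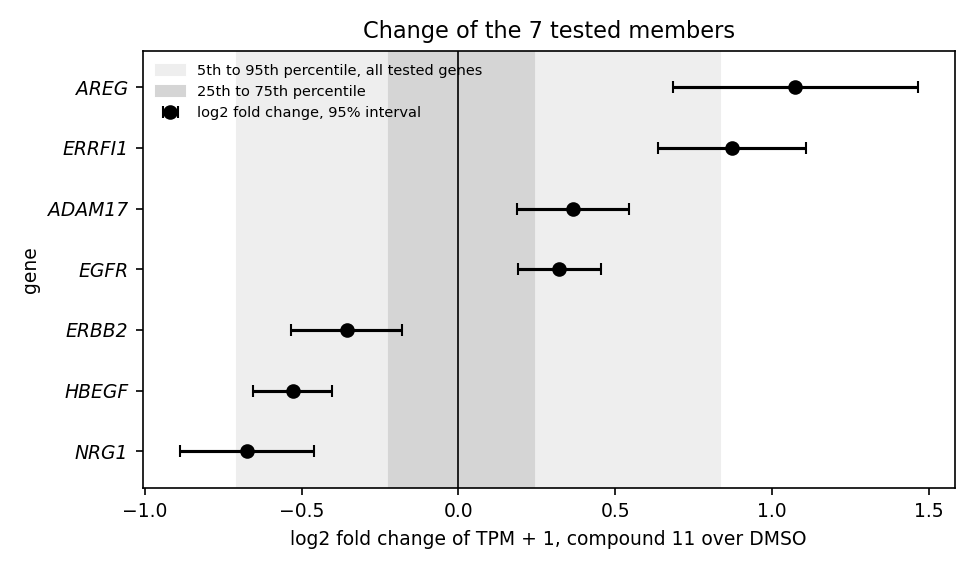
Log2 fold change of TPM + 1, compound 11 over DMSO, of the 7 tested genes with limma's 95% intervals, over bands that hold the central parts of all 12067 tested genes. AREG at 1.07 and ERRFI1 at 0.87 lie above the 95th percentile of all genes, 0.83, and NRG1 at -0.67 lies just inside the 5th, -0.71.

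**Figure D4:**
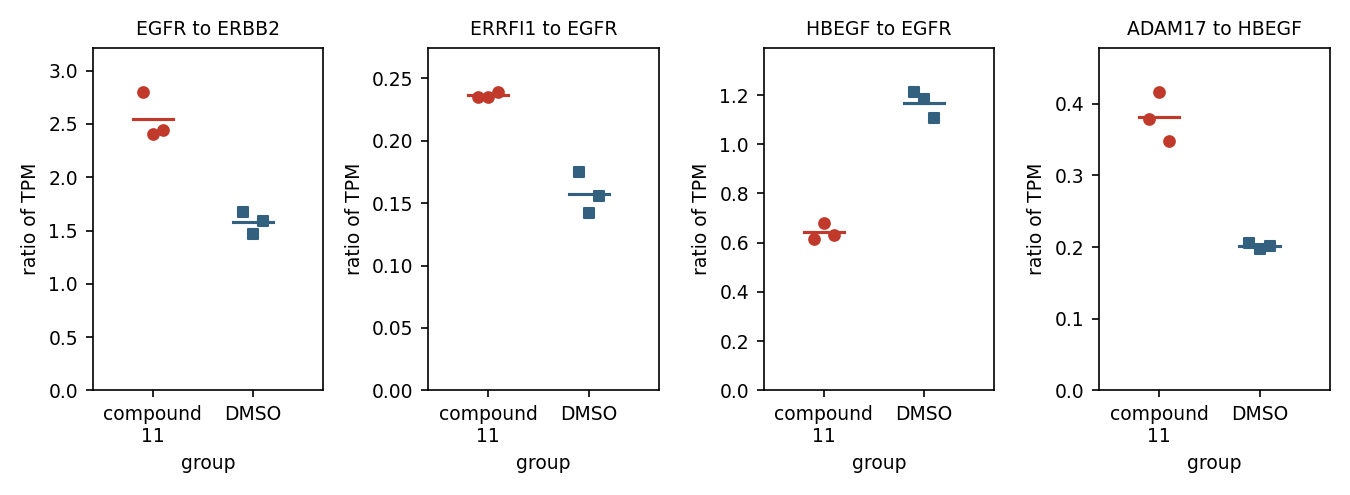
Ratios of TPM within each library for 4 pairs of members, with compound 11 libraries as red circles left of DMSO libraries as blue squares and the group mean as a bar; axes start at 0. EGFR to ERBB2, ERRFI1 to EGFR and ADAM17 to HBEGF are higher in all compound 11 libraries, and HBEGF to EGFR is lower, at 0.616 to 0.680 against 1.10 to 1.21.

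The other ERBB receptor and ligands were scarce. Of the 7 genes on that list (ERBB4, EGF, BTC, EPGN and NRG2 to NRG4), 2 were tested, 1 higher and 1 lower. EGF, the founding ligand of the family, was at 0.077, 0.046 and 0.052 TPM in compound 11 libraries and at 1.67, 1.83 and 1.57 TPM in DMSO libraries. It entered the test through its DMSO libraries alone. Mean TPM was 29-fold lower with compound 11 (limma log2 fold change -1.34, SE 0.15, on the log2(TPM + 1) scale, Benjamini-Hochberg adjusted p = 7.06e-05). NRG2 was higher (log2 fold change 0.83 ± 0.18 SE, adjusted p = 0.0042). It reached 1 TPM in 5 of 6 libraries, with DMSO replicate 1 at 0.673 TPM. Its DMSO libraries alone would not have sufficed for it to be tested.

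Of 9 sheddase partners and other ADAM proteases, 8 were tested. Of these, 3 were higher and 1 lower, beside 25.3% and 24.3% of all genes tested. Their median log2 fold change was -0.08, beside -0.0013 over all genes tested. Both iRhoms, the carriers that bring ADAM17 to the cell surface, were higher with compound 11. RHBDF2 was at 38.3, 41.3 and 36.0 TPM in compound 11 libraries and at 17.5, 19.1 and 16.2 TPM in DMSO libraries (limma log2 fold change 1.09 with SE 0.08, Benjamini-Hochberg adjusted p = 5.31e-06). RHBDF1 was at 34.0, 36.6 and 29.8 TPM with compound 11 and at 16.0, 22.6 and 18.6 TPM in DMSO (log2 fold change 0.79, adjusted p = 0.000564). ADAM12, which can also release HB-EGF, was lower, at 14.1, 13.3 and 14.0 TPM with compound 11 and 26.2, 26.6 and 28.6 TPM in DMSO (log2 fold change -0.93, adjusted p = 7e-06). ADAM10, the other main sheddase, was at 183 ± 18.2 TPM with compound 11 and 202 ± 22.1 TPM in DMSO and did not pass (adjusted p = 0.207). Without DMSO replicate 2, 2 genes on this list were lower.

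Of 15 genes that attenuate or sort the receptors, all tested, 8 were higher and 1 lower, beside 25.3% and 24.3% of all genes tested. Their median log2 fold change was 0.14. CBLB, a ubiquitin ligase that tags active receptors for degradation, was at 111, 88.4 and 100 TPM in compound 11 libraries and at 29.5, 37.6 and 31.1 TPM in DMSO libraries (limma log2 fold change 1.58 with SE 0.10, Benjamini-Hochberg adjusted p = 1.75e-06). Its relative CBL was at 27.3 ± 3.1 and 27.7 ± 2.53 TPM and did not pass (adjusted p = 0.884). PTPN12, a tyrosine phosphatase, was 1.99-fold higher. RNF41, the ubiquitin ligase that acts on ERBB3, was the 1 gene lower, at 33.6 ± 1.17 TPM with compound 11 and 51.8 ± 1.06 TPM in DMSO. The count of 8 was 5 without DMSO replicate 1, without DMSO replicate 2 or without compound 11 replicate 3, and the count of 1 lower was 2 without DMSO replicate 3.

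Of 20 adaptors and kinases from the receptor to ERK, 7 were higher and 6 lower, beside 25.3% and 24.3% of all genes tested. Their median log2 fold change was 0.06. GAB2, a docking protein that recruits PI3K, was at 24, 23.5 and 23.2 TPM with compound 11 and at 11.9, 11.7 and 11.1 TPM in DMSO (limma log2 fold change 0.97 with SE 0.07, Benjamini-Hochberg adjusted p = 5.34e-06). RASA1, a RAS GTPase-activating protein, was 1.49-fold higher. HRAS and the scaffold KSR1 were lower (log2 fold changes -0.47 and -0.53). MAP2K2, a kinase of the cascade, averaged 131 TPM in both groups and did not pass (adjusted p = 0.989).

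Of 10 genes commonly read as output of ERK signalling, 8 were higher and 0 lower in limma (0 lower also at an unadjusted p of 0.05), with a median log2 fold change of 1.18, beside 25.3% and 24.3% of all genes tested. Like the other lists, this list was chosen with earlier results of these data known. The count is therefore a description and not a comparison with these shares. DUSP6, a phosphatase that ERK induces and that switches ERK off, was at 139, 133 and 148 TPM in compound 11 libraries and at 16.2, 20.5 and 20.4 TPM in DMSO libraries (limma log2 fold change 2.82 with SE 0.09, Benjamini-Hochberg adjusted p = 1.39e-08). SPRY4, a Sprouty inhibitor of the pathway, was 3.28-fold higher, DUSP4 2.38-fold and ETV4, an ETS transcription factor, 2.27-fold. EPHA4 and ETV5 did not pass (log2 fold changes -0.11 and 0.16; adjusted p = 0.379 and 0.0573). RNA does not measure phosphorylation of ERK or of the receptors.

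**Figure D5:**
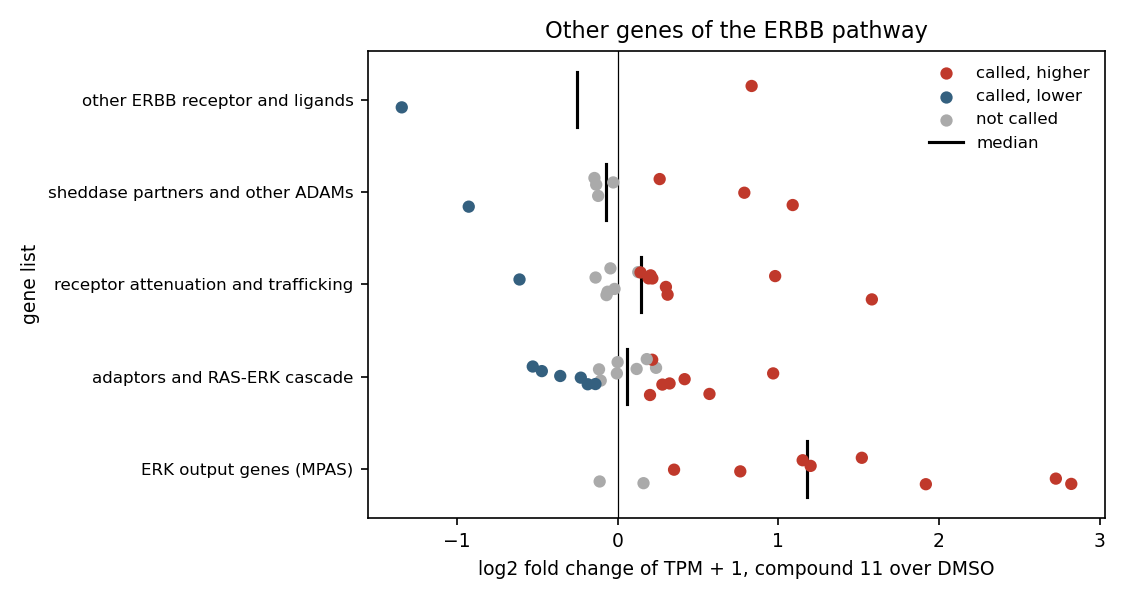
Log2 fold change of TPM + 1, compound 11 over DMSO, of each tested gene on 5 lists of the ERBB pathway; red points passed as higher, blue points as lower, grey points did not pass, and black bars are medians. The ERK output list has 8 of 10 genes called higher and 0 called lower, and each of the other lists has genes called in both directions.

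Between 14699 and 14830 genes per library were above 0 TPM. Of 15 stellate and myofibroblast markers, ACTA2, COL1A1, VIM and PDGFRB among them, 9 were tested, and 8 were lower and 1, VIM, higher with compound 11. Their median log2 fold change was -3.02 beside -0.0013 over all genes tested, with ACTA2 28.1-fold, COL1A1 11.1-fold and PDGFRB 2.71-fold lower by mean TPM. COL1A2 and THY1 entered the test through their DMSO libraries alone. The list, mostly VIM, summed to 7625 to 7829 TPM with compound 11 and 8679 to 8986 TPM in DMSO. On this list DES was at 0 in all libraries and LRAT and GFAP at or below 0.218 TPM. Of 8 epithelial markers 3 were tested, with 1 higher (SOX9) and 1 lower (KRT7). That list, mostly SOX9, summed to 40.8 to 42.5 TPM with compound 11 and 30.2 to 36.0 TPM in DMSO. Of 8 hepatocyte markers 2 were tested and both were higher, and 4 were at 0 in all libraries. Their sums were 22.5 to 29.9 TPM and 4.37 to 6.64 TPM, mostly SERPINA1 (21.8 ± 4.65 TPM with compound 11 and 3.73 ± 0.38 TPM in DMSO). Of 8 leukocyte markers 4 were tested, 2 of them higher, with sums of 140 to 156 TPM and 89.5 to 92.0 TPM, mostly CD68. Of 7 endothelial markers 3 were tested and called higher, PECAM1 having entered through its compound 11 libraries alone, with sums of 10.4 to 12.3 TPM and 3.38 to 3.88 TPM, and CLEC4G was at 0 throughout. KDR, at 1.29, 0.901 and 1.14 TPM in DMSO libraries, would not have entered the test through these alone. Of all genes tested, 25.3% were higher and 24.3% lower. The part of these markers in the changes of the ERBB genes was not tested.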

How the data were processed

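Per the labels' protocols, RNA was extracted with TRIzol and an Illumina TruSeq kit gave the libraries. The submitters' processing notes list Bowtie 0.12.2 and, as builds, GRCh38.p12 and the mouse build mm8, with no role for either; the identifiers in the table are those of human genes. Not given in the sources used here are the counting, the annotation and the use of strand. As deposited, the values, FPKM per the file headers, sum to 1000000 in each library, so the authors' final scale was TPM, the name used here. It keeps no depth, so no counting error can be given.

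From log2(TPM + 1), limma 3.58.1 (R 4.3.3) was fitted to the 12067 genes that reached 1 TPM in 3 or more of 6 libraries, with group as the only term, variances following a mean trend, two-sided tests and Benjamini-Hochberg adjustment at 0.05. The pipeline was tested on simulated data. Folds without log2 are ratios of mean TPM; ratios between genes were compared by exact permutation in scipy 1.17.1. Coordinates are from GENCODE 29 (GRCh38, 20113 identifiers matched), promoters from RefSeq (GRCh38.p14). All 10 members are named. From the other lists, called genes with an absolute log2 fold change of at least 0.5, or among the 3 smallest adjusted p, could be named. Named outside this rule, after their values were seen, were CBL, ADAM10, MAP2K2, EPHA4, ETV5, VIM and CLDN4. The same holds for untested genes of the lists, EPCAM and KRT19 among them, and for genes overlapping a member. Some genes of the lists are not reported here by name. Members and lists were chosen with earlier results of these data known.

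The alternatives tried were other pseudocounts (0.1 and 0.01), no filter on low values, a minimum mean of 5 TPM, scaling to a common upper quartile, quantile normalization, leaving out the 20 most abundant genes, variances with no trend, a replicate block and leaving out single libraries.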

Additional observations from a re-analysis of the deposited data

How the results depend on the processing

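The calls of EGFR, ERBB2, HBEGF, NRG1, ADAM17 and ERRFI1 kept their direction and their side of the threshold in each of 15 alternatives, and that of AREG in the 14 that tested it; a minimum mean of 5 TPM removed AREG, EGF and NRG2. Over these, the largest Benjamini-Hochberg adjusted p from limma was 0.0172, for ADAM17 and ERBB2. EGFR ranged from 0.27 to 0.37, HBEGF from -0.57 to -0.49, NRG1 from -0.74 to -0.59 and ERRFI1 from 0.78 to 0.96 (log2 fold change). AREG ranged from 0.95 to 1.64 and EGF from -4.66 to -1.31 on the same scale, the largest sizes coming from the smallest pseudocount. With the replicate number as a block, 3172 genes were higher and 3054 lower, beside 3052 and 2932 without it, and 4 members were higher and 3 lower in both; 3 sheddase list genes were then lower in place of 1. Same-numbered libraries correlated weakly in their deviations from the group means (0.08, 0.15 and 0.07 across genes), each best with its own number, and nothing in the labels says that a number marks a shared culture, so the libraries were not treated as paired. Leaving out each library in turn gave 2632 to 2864 genes higher and 2533 to 2800 lower, and log2 differences of 0.62 to 0.73 for EGFR to ERBB2 and 0.52 to 0.67 for ERRFI1 to EGFR. The genes that attenuate the receptors gave 5 higher without the variance trend, and the sheddase list 2 lower with the same upper quartile. No scaling moved the median of all tested genes by more than 0.03 (log2).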

Other observations

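AREG and EREG lie in a stretch of chromosome 4 with other growth factor and chemokine genes. Within 500 kb of the pair, 12 genes of the table were found, and of the 6 tested 5 were higher with compound 11 and 0 lower in limma with Benjamini-Hochberg adjustment (0 lower also at an unadjusted p of 0.05). Of all genes tested, 25.3% were higher and 24.3% lower. CXCL2 and CXCL3 reached 1 TPM in compound 11 libraries only and so entered the test through them, and AREG set the window. The locus count is therefore a description and not a comparison with these shares. Besides AREG, the genes called higher were the neutrophil chemokines CXCL1 (log2 fold change 2.73), CXCL5 (3.10), CXCL3 (1.99) and CXCL2 (1.39). CXCL1 was at 36.0 ± 1.51 TPM with compound 11 and 4.60 ± 0.575 TPM in DMSO (SD, n = 3 each). MTHFD2L, which lies between the chemokines and the ligands, did not pass (0.37, adjusted p = 0.109). Of the other EGFR ligand genes there, EPGN was at 0.109 TPM in 1 compound 11 library and at 0 in the other 5 libraries, and BTC was at 0.320 ± 0.0615 TPM with compound 11 and 0.184 ± 0.0844 TPM in DMSO. The window was chosen after the values of AREG and EREG were seen.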
